A study of Caenorhabditis elegans with 8 samples.

Results

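Among the protein-coding genes of Caenorhabditis elegans that WormBase knows only by a sequence name, 43 stood lower in every library of worms kept in light-dark cycles than in every library of worms kept in darkness, by a fixed margin. They were chosen from the deposited FPKM values (fragments per kilobase of exon, scaled by a total for each library). The genes averaged 1 FPKM or more across the 8 libraries. Their lowest library from darkness was at least 1.5 times the highest from light-dark cycles. Of 47087 loci in the table, 9055 were protein-coding genes with a sequence name and 5698 of these reached the mean, so the 43 members were 0.755% of the genes the rule could reach. Over all 14358 loci with that mean, of any kind, 0.669% passed the same margin. The rule used the contrast between the 2 groups, so that contrast is described here for the members and not tested.

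All animals were wild-type N2, the standard laboratory strain, grown from synchronized first-stage larvae on OP50 bacteria for 40 h at 20 °C to what the labels call young adults. The 4 NL libraries came from worms in constant darkness, and the 4 DL libraries from worms under 12 h of LED light at 8000 lux alternating with 12 h of darkness. Each of 4 labelled batches holds 1 NL and 1 DL library. RNA was polyA-selected from whole animals. The labels do not say how long the light cycles lasted, how many animals went into a library or whether libraries came from separate cultures, so the spread given is that between libraries and may be technical. In whole animals, fewer cells of a type and less RNA per cell cannot be told apart.

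A sequence name joins the name of the genomic clone on which the gene was found to the gene's number on that clone, so genes that share a prefix lie near each other. Such names carry no information on function. Many genes with such names belong to families that multiplied by tandem duplication in nematodes, often on the arms of chromosome V. Whether the members lie on chromosome arms was not assessed. No role is given here to any gene that the annotation does not name, and protein sequences and domains were not analysed here.

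Depth was even, with 18628030 to 20394371 reads recovered from the FPKM values per library. The total by which the FPKM values were scaled was not this depth. It was 21590583 in DL 1, with 18628030 reads recovered, and 18308915 in DL 3, with 19515230 reads recovered. The sum of FPKM ran from 661483 in DL 1 to 969531 in DL 3, and counts under other scalings are given below. Markers of muscle, neurons, intestine and epidermis, 4 genes each, were all detected in the whole-worm RNA. All 4 muscle markers had a lower mean in DL, with a median log2 difference of -0.50, and a mean log2(FPKM + 1) of 7.59 to 8.28 over the NL libraries against 7.37 to 7.76 over the DL libraries, ranges that overlap. Of the neuron, intestine and epidermis markers, 3, 3 and 1 of 4 had a lower mean in DL, with median log2 differences of -0.24, -0.29 and 0.16. Stage markers differed between the groups and also between the libraries of a group. Genes of sperm, 45 in the list, had a mean log2(FPKM + 1) of 0.45 to 1.60 in NL 1, NL 2 and NL 4, 4.52 in NL 3, and 4.34 to 6.29 in the DL libraries. Of the sperm genes, 0 had a lower mean in DL, and the groups overlap in the sperm mean through NL 3 alone. Vitellogenin genes vit-1 to vit-6, which encode yolk proteins made by adult hermaphrodites, together with the adult cuticle collagen gene col-19 had a mean log2(FPKM + 1) of 4.4 in NL 3 and 5.1 in DL 2 against 0.10 to 1.2 in the other libraries. Sperm level and light treatment thus changed together in every library but NL 3. The part of these tissue and stage differences in the members' values was not tested. Without NL 3 and DL 2, 83 genes met the rule, 39 of the 43 members among them. Leaving out libraries can only raise a member's margin, so this count says nothing on stage. The other 4 members (K01D12.10, C05C8.8, C13A2.6 and W07G4.7) fell under a mean of 1 FPKM over the remaining 6 libraries.

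Across the 43 members the ratio of the NL mean to the DL mean ranged from 1.7 to 84.1 with a median of 4.36, while the median log2 difference of DL from NL was -2.12 for the members and 0.06 for all 5698 sequence-name genes. The ratio was at least 10 for 6 members, at least 5 for 18 and under 3 for 12. Most members were weakly expressed: 26 of 43 (60.5%) had a mean under 5 FPKM over all libraries, against 37.4% of the 5698 genes. NL means ran from 1.79 to 270 FPKM, with a median of 7.0, and DL means from 0.114 to 59.5 FPKM, with a median of 1.23. The mirrored rule found 52 sequence-name genes higher in DL (0.913%), and the same rule found 48 of 7848 named protein-coding genes lower (0.612%) and 28 higher (0.357%).

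**Figure D1:**
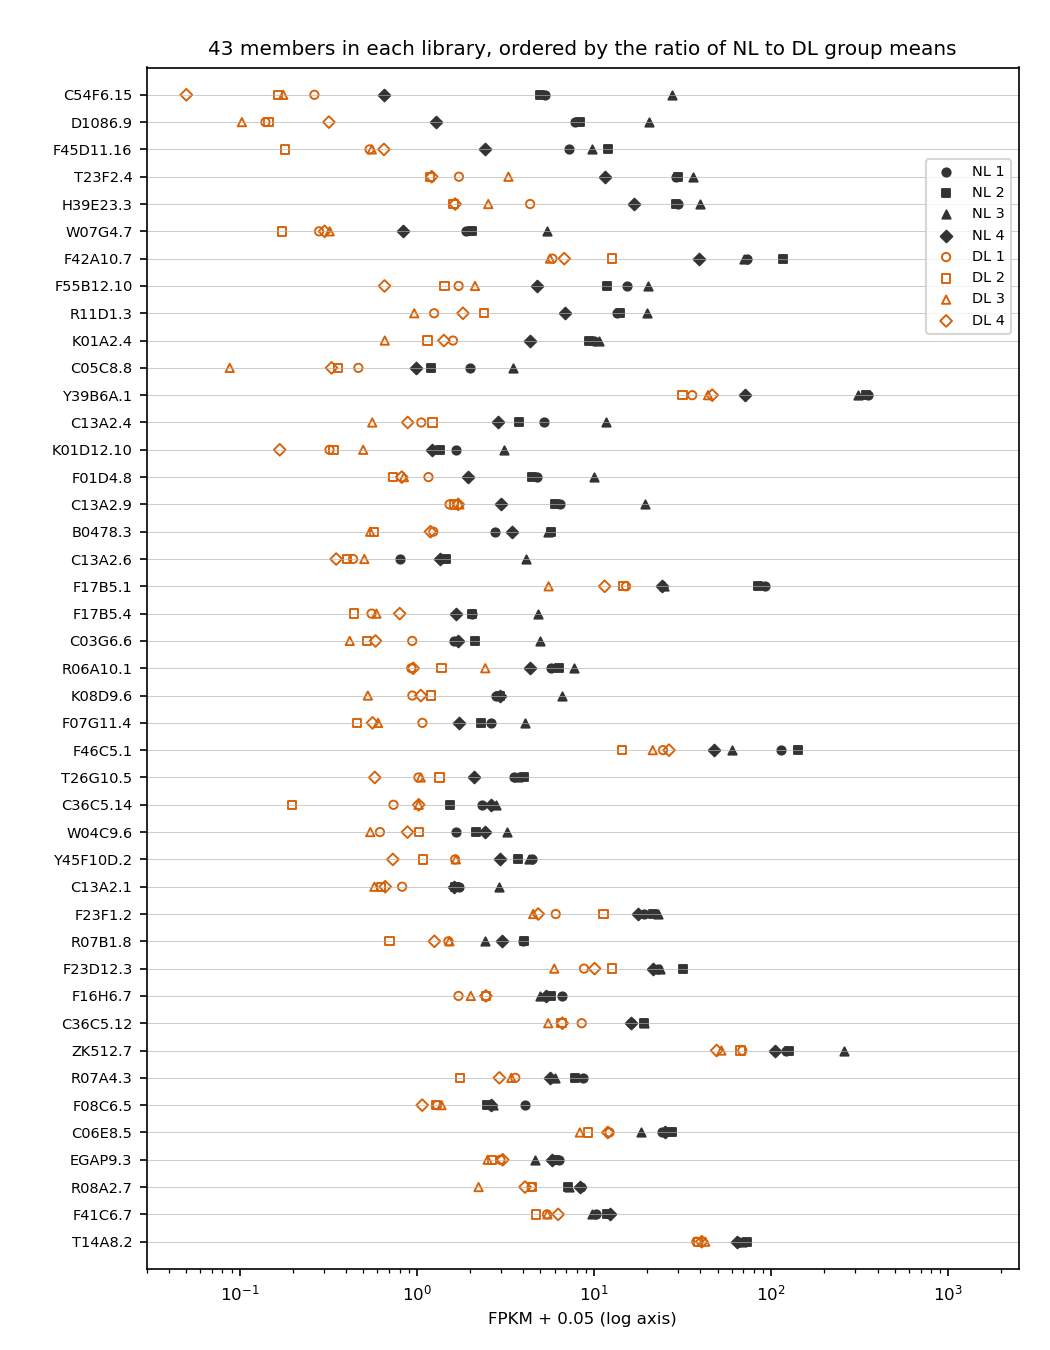
FPKM plus 0.05 (log axis) of each of the 43 members in each library, ordered by the ratio of NL to DL group means; filled symbols are the 4 NL libraries and open symbols the 4 DL libraries. By the choice of members no open symbol lies to the right of a filled one in a row. C54F6.15 has the highest ratio of means, 84.1, and T14A8.2 the lowest, 1.7.

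H39E23.3 was one of the larger and better measured differences, and the gene next to it, D1086.9, was nearly absent from DL. H39E23.3 (WBGene00044201, V 14107811 to 14110051, plus strand, WBcel235) had 29.8, 29.1, 39.8 and 16.7 FPKM in NL 1 through NL 4 but 4.32, 1.56, 2.49 and 1.6 FPKM in DL 1 through DL 4. Its NL mean of 28.8 ± 9.46 FPKM and DL mean of 2.49 ± 1.29 FPKM (SD, n = 4) gave a ratio of 11.6, and even its lowest NL library was 3.87 times its highest DL library. D1086.9 (WBGene00008396, V 14104270 to 14106330) lies 1.5 kb upstream on the same strand. It had 7.79, 8.34, 20.4 and 1.24 FPKM in the NL libraries and 0.0899, 0.0958, 0.053 and 0.269 FPKM in the DL libraries. NL 3 was the highest and NL 4 the lowest library for both neighbours. The D1086.9 means of 9.44 ± 7.99 and 0.127 ± 0.0968 FPKM (SD, n = 4) gave a ratio of 74.4, which became 45.6 without NL 3 and 118.7 without DL 4. In reads, 1529 in NL faced 21 in DL over the 4 libraries each, and the exact 95% interval of the ratio, 48.7 to 121, covers counting error only. The pair are the only members whose coding sequence lies in 1 exon, a structure found in 2.14% of all sequence-name genes kept, and they encode proteins of 686 and 746 residues.

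The genes that flank this pair were not lower in the same way. D1086.12, upstream, averaged 26.7 FPKM in NL and 26.2 FPKM in DL. H39E23.2, downstream, was near the limit of detection, with 0.0724 to 0.557 FPKM in NL and 0 to 0.227 FPKM in DL.

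F42A10.7 was the most abundant of the genes with a ratio near 10. The gene (WBGene00018343, III 6177916 to 6178686, minus strand, 187 residues) stood at 73.7, 117, 70.1 and 39.1 FPKM in the NL libraries and at 5.79, 12.6, 5.61 and 6.76 FPKM in the DL libraries. DL 2 lay apart from the other DL libraries but still 3.10 times below the lowest NL library. Its means were 74.9 ± 31.9 and 7.70 ± 3.33 FPKM (SD, n = 4), a ratio of 9.73. The next gene on the same strand, F42A10.6, 1.1 kb away, is no member. Its FPKM was 135 ± 21.4 in NL and 76.4 ± 9.05 in DL, a smaller difference in the same direction. F42A10.5, beyond it, had 60.6, 53.9, 90.1 and 108 FPKM in NL against 79.3, 104, 117 and 96.7 FPKM in DL, and its groups overlap.

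T23F2.4 encodes the shortest protein of the set, 57 residues. This gene on the X chromosome (WBGene00020737, X 5514727 to 5515084, minus strand) had 29.0, 29.8, 36.2 and 11.6 FPKM in NL and 1.68, 1.14, 3.24 and 1.17 FPKM in DL. NL 4 was again the lowest NL library, at 3.56 times the highest DL library, and the means of 26.6 ± 10.6 and 1.81 ± 0.99 FPKM (SD, n = 4) gave a ratio of 14.7. The nearest genes on either side, T23F2.3 and T23F2.5, lie on the same strand and also encode 57 residues in 2 coding exons. T23F2.3 had 45.7, 53.6, 45.7 and 21.8 FPKM in NL against 34.6, 31.0, 46.8 and 36.1 FPKM in DL, so its groups overlap. T23F2.5 had 60.7, 64.4, 76.9 and 66.1 FPKM in NL against 42.7, 52.4, 59.3 and 56.2 FPKM in DL, a ratio of means of 1.27. Both neighbours were thus well expressed in DL, unlike T23F2.4. Other members encode proteins under 100 residues: C54F6.15 (94), T26G10.5 (84) and F55B12.10 (83). Short proteins as a class were about as frequent among the members as elsewhere: 15 of 43 (34.9%) had under 200 residues, against 32.1% of the sequence-name genes kept, and the median length was 254 residues against 290.

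C54F6.15 had the highest ratio of all members and rests on few reads. This gene (WBGene00044113, V 7521900 to 7522379, minus strand) had 5.28, 4.90, 27.5 and 0.605 FPKM in the NL libraries and 0.214, 0.114, 0.126 and 0 FPKM in the DL libraries. NL 4 holds 5 reads and the DL libraries 2, 1, 1 and 0 reads, so each single DL value is at the limit of what the depth can show. The ratio of means was 84.1, with an exact 95% counting interval of 32.3 to 309, and became 31.6 without NL 3. C54F6.6, the neighbour 1.3 kb away on the opposite strand, also encodes 94 residues and showed the same order of libraries. Its values were 3.76, 3.45, 16.3 and 0.124 FPKM in NL and 0.109, 0, 0 and 0 FPKM in DL. It is no member because NL 4 and DL 1 hold a single read each. Whether reads are shared between these neighbours was not tested.

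F45D11.16 is the symbol of 2 gene IDs with equal exon structure, and the reads that the authors' counting gave to each may be split uncertainly. The member (WBGene00018461, II 1016262 to 1018100) had 7.21, 11.9, 9.75 and 2.39 FPKM in NL and 0.492, 0.131, 0.508 and 0.603 FPKM in DL, a ratio of means of 18.1. The copy (WBGene00018460, II 1010444 to 1012282) had 3.46 ± 2.09 FPKM in NL and 0.287 ± 0.148 FPKM in DL (SD, n = 4) and missed the rule because NL 4 was only 1.28 times the highest DL library. Summed, which does not depend on the split between the copies, the locus had 11.3 ± 6.17 FPKM in NL and 0.721 ± 0.344 FPKM in DL, and its lowest NL sum was 3.03 times its highest DL sum. Both genes span 8 coding exons and encode 501 residues.

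The other members among the 10 highest ratios were low to moderately expressed. W07G4.7 on chromosome V had 1.85, 2.01, 5.39 and 0.782 FPKM in NL and 0.231, 0.123, 0.272 and 0.252 FPKM in DL. Those DL values stand for 2, 1, 2 and 2 reads, and the ratio of 11.4 (exact 95% counting interval 5.36 to 29.7) became 7.05 without NL 3. F55B12.10, also on V, had 15.3, 11.8, 20.3 and 4.72 FPKM in NL against 1.67, 1.39, 2.08 and 0.608 FPKM in DL, a ratio of 9.07. R11D1.3, on V, had 13.5, 13.9, 19.9 and 6.87 FPKM in NL against 1.20, 2.34, 0.919 and 1.77 FPKM in DL, a ratio of 8.69. K01A2.4, on II, had 9.96, 9.39, 10.6 and 4.31 FPKM in NL against 1.55, 1.10, 0.61 and 1.37 FPKM in DL, a ratio of 7.39. In all 4 genes NL 3 was the highest and NL 4 the lowest of the NL libraries.

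Several of the most abundant members had another order of libraries. Y39B6A.1 (WBGene00012664, V 19201016 to 19203607, minus strand, 735 residues) was the highest of all in NL. The NL libraries held 353, 342, 311 and 71.2 FPKM and the DL libraries 35.9, 31.6, 44.1 and 46.6 FPKM. NL 4 lay far below the other 3 NL libraries and only 1.53 times above DL 4. The ratio within a batch was 9.84, 10.8 and 7.06 in batches 1 to 3 and 1.53 in batch 4, so the ratio of means, 6.82, rests on batches 1 to 3. F17B5.1 (I 13184852 to 13188192, 777 residues, the longest protein of the set) split the NL libraries evenly, with 92.4 and 85.0 FPKM in NL 1 and NL 2 but 24.8 and 24.1 FPKM in NL 3 and NL 4. The DL libraries held 15.2, 14.6, 5.51 and 11.5 FPKM. F46C5.1 (II 8820153 to 8821190) showed a like split, with 114, 142, 60.4 and 47.6 FPKM in NL and 24.5, 14.4, 21.5 and 26.5 FPKM in DL, a ratio of means of 4.19.

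ZK512.7 and T14A8.2 were abundant in both groups and had small ratios. ZK512.7 (III 9138052 to 9138701, minus strand, 141 residues) had 121, 126, 259 and 105 FPKM in NL and 68.9, 67.2, 52.5 and 49.3 FPKM in DL, a ratio of 2.57. It lies on the strand opposite eat-4, the vesicular glutamate transporter gene, which itself had 3.96 ± 0.236 FPKM in NL and 3.43 ± 0.732 FPKM in DL (SD, n = 4). T14A8.2 (IV 7821664 to 7822624, 178 residues) had the lowest ratio of the set but tight groups: 65.9, 73.4, 68.6 and 64.3 FPKM in NL against 37.9, 38.7, 42.5 and 40.6 FPKM in DL. Its means of 68.0 ± 3.96 and 39.9 ± 2.1 FPKM (SD, n = 4) gave a ratio of 1.7. F23D12.3, on X, had 22.9, 31.8, 23.5 and 21.4 FPKM in NL against 8.75, 12.6, 5.93 and 10.1 FPKM in DL. C06E8.5, on III, had 24.3, 27.4, 18.4 and 25.1 FPKM in NL against 12.2, 9.21, 8.29 and 12.0 FPKM in DL. It overlaps prk-1, a kinase gene on the opposite strand, only at their ends, from III 7002300 to 7002310.

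A stretch of chromosome V held 6 members in 43.1 kb, from V 7252244 to 7295370. They are, in genome order, C05C8.8, C13A2.9, C13A2.6, C13A2.4, C13A2.1 and F07G11.4. All 11 protein-coding genes within these bounds had a lower mean in DL than in NL, and 8 of the 11 passed the 1.5 ratio. The 6 members, which also set the bounds, pass it by the rule. The others that passed, C13A2.7 and C13A2.10, averaged under 1 FPKM. Of all 13561 protein-coding genes averaging 1 FPKM or more, 91 passed the ratio and 45.7% had a lower mean in DL. The best expressed of the 6 members was C13A2.9 (306 residues), with 6.41, 6.0, 19.5 and 2.93 FPKM in NL and 1.48, 1.58, 1.69 and 1.67 FPKM in DL. C13A2.4 (312 residues) had 5.18, 3.72, 11.7 and 2.82 FPKM in NL and 1.01, 1.18, 0.511 and 0.839 FPKM in DL. In both, NL 3 exceeded NL 1 and NL 2 by more than 2-fold, whereas the DL libraries stayed within a narrow range in C13A2.9. The ratio of means of C13A2.9, 5.43, became 3.18 without NL 3.

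The other 4 members of the stretch carry names of one family in RefSeq: C05C8.8 is gtnt-3, C13A2.6 gtnt-6, C13A2.1 gtnt-4 and F07G11.4 gtnt-21. C05C8.8 had 1.95, 1.16, 3.43 and 0.944 FPKM in NL against 0.418, 0.309, 0.038 and 0.281 FPKM in DL, a ratio of 7.15. C13A2.6 had 0.759, 1.41, 4.11 and 1.31 FPKM in NL against 0.387, 0.353, 0.456 and 0.301 FPKM in DL. Its ratio of 5.07 became 3.10 without NL 3. C13A2.1 (498 residues) and F07G11.4 (499 residues) lie tail to tail on opposite strands, 0.4 kb apart. C13A2.1 had 1.69, 1.58, 2.85 and 1.58 FPKM in NL against 0.777, 0.58, 0.527 and 0.614 FPKM in DL, a ratio of 3.08. F07G11.4 had 2.57, 2.26, 4.02 and 1.69 FPKM in NL against 1.03, 0.41, 0.555 and 0.513 FPKM in DL, a ratio of 4.21.

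Followed outward, the stretch was part of an unbroken run of 15 protein-coding genes, V 7252244 to 7309589 (57.3 kb), each with a log2 difference of group means below -1. That limit was chosen after the values were seen; 3.83% of the protein-coding genes averaging 1 FPKM or more lay below it, a mean that 9 of the 15 reached. All 15 genes were highest in NL 3 among the 8 libraries, and 6 of the 15 are gtnt genes. NL 3 was the highest NL library for 40.8% of the sequence-name genes kept. In 12 of the 15, NL 3 was at least 2 times the geometric mean of NL 1 and NL 2, against 20.4% of those genes. The NL means of the run thus lean on NL 3, the NL library with sperm and vitellogenin transcripts. Of the 9 genes of the run that are no members, C13A2.12 was the most abundant, with 37.4, 33.1, 73.8 and 6.86 FPKM in NL and 4.11, 20.4, 7.52 and 8.64 FPKM in DL. Its groups overlap through NL 4. C13A2.7, with 0.856, 0.712, 1.56 and 0.527 FPKM in NL against 0.0312, 0.0332, 0.11 and 0.034 FPKM in DL, passed the ratio but not the mean. F07G11.1, at the far end, had 3.92, 3.98, 15.8 and 3.07 FPKM in NL and 0.892, 1.30, 0.332 and 2.20 FPKM in DL. F07G11.2 is listed at 0 in every DL library and at most 0.801 FPKM in NL. The remaining non-members are C13A2.10, C13A2.5 (gtnt-5), C13A2.3, F07G11.3 (gtnt-20) and srj-32, which is named as a serpentine receptor gene.

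**Figure D2:**
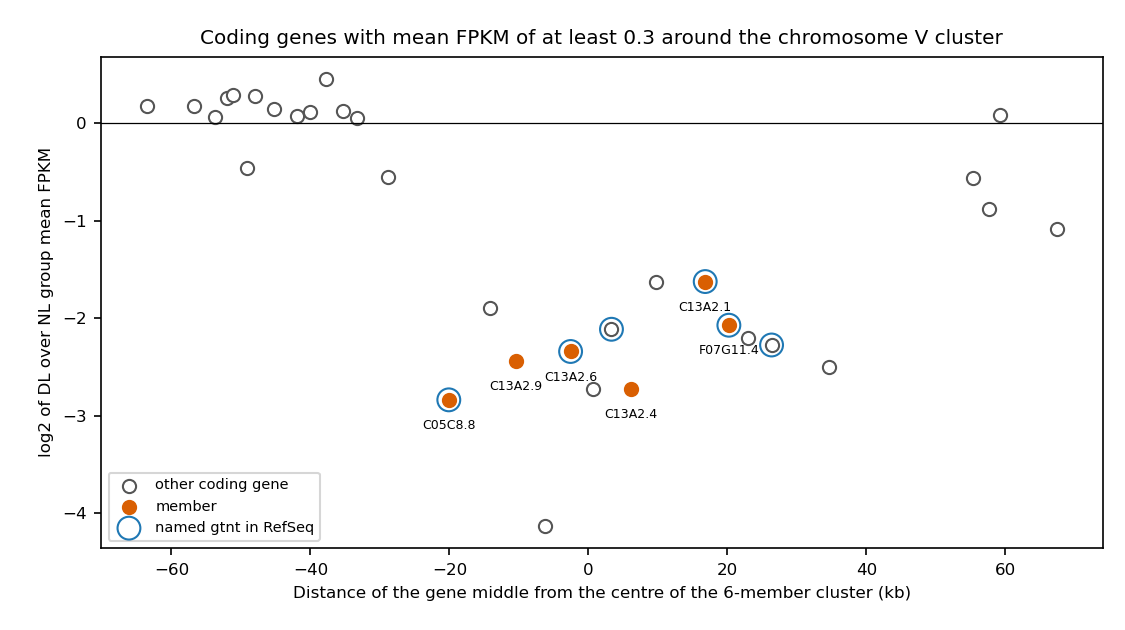
Log2 of the DL over the NL group mean (vertical) against the distance of a gene's middle from the centre of the 6-member cluster in kb (horizontal), for protein-coding genes averaging 0.3 FPKM or more; filled points are members and rings mark gtnt genes. The genes of the run lie below -1, while C05C8.7, the gene before it, lies at -0.56; F07G11.2 is under 0.3 FPKM and not drawn.

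RefSeq names 58 gtnt genes, 36 of them on chromosome V, and 28 reached a mean of 1 FPKM. Of the 23 that did so and are no members, 8 were lower in DL, their median log2 difference was 0.07. Groups that did not overlap in the lower direction were found in 0 of the 23, and in 4.95% of 13561 protein-coding genes, so the 0 is near that share. The 6 in the run lay at log2 differences from -2.84 to -1.62. The fifth gtnt member, K08D9.6 (gtnt-36, V 3231383 to 3234987), lies elsewhere on the chromosome. It had 2.76, 2.92, 6.57 and 2.91 FPKM in NL against 0.895, 1.16, 0.48 and 1.0 FPKM in DL, a ratio of 4.29. The look at this family was chosen after the values were seen, and how the counting treated reads that match several members is not given in the sources used here.

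**Figure D3:**
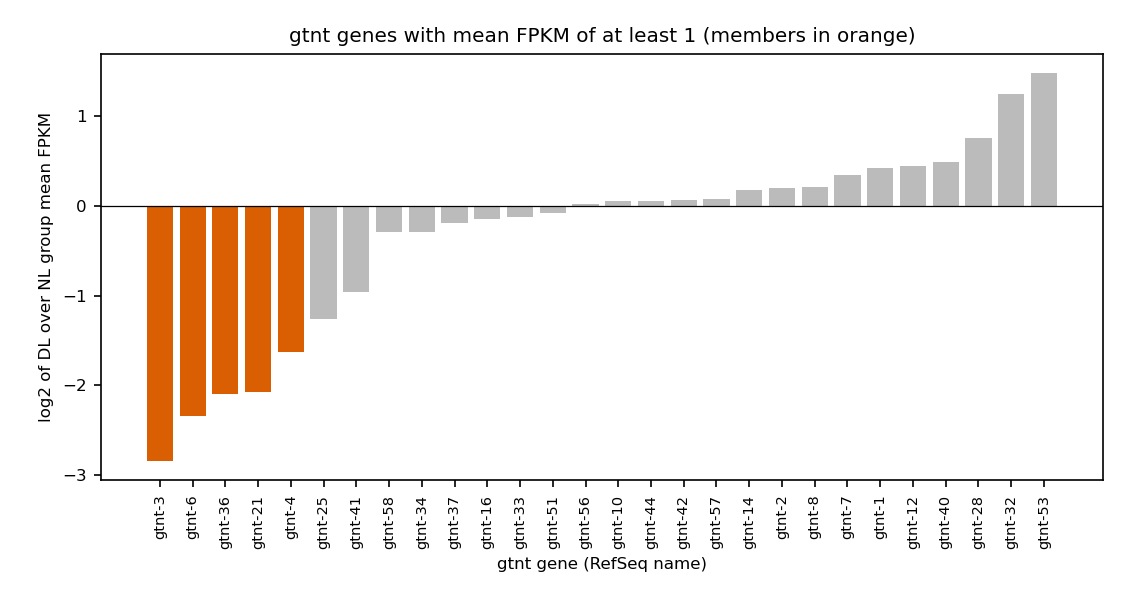
Log2 of the DL over the NL group mean (bars, from 0) of the 28 gtnt genes averaging 1 FPKM or more, in rising order; the 5 members are orange and other genes grey. The members, chosen for low DL values and so below 0 by the rule, hold the 5 lowest places, between -2.84 and -1.62. The other 23 lie on both sides of 0 with a median of 0.07.

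Other members of the set carry a RefSeq name as well. T26G10.5 is nssp-34, F01D4.8 is cyts-1 and R07B1.8 is pugs-5, so that 8 of 43 have a newer name and 35 still have none. Of the 77 nssp genes that reached the mean, 65 were lower in DL, with a median log2 difference of -0.32 and 1 member among them. Of the 76 that are no members, 64 were lower, but only 3 had groups that did not overlap in that direction. Of the 8 pugs genes that reached the mean, 6 were lower in DL. Of the 7 that are no members, 5 were lower and 2 had no overlap. Over the 13561 protein-coding genes kept, 45.7% had a lower mean in DL and the median log2 difference was 0.04. Groups did not overlap in the lower direction in 4.95% of them.

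Besides the chromosome V stretch and the H39E23.3 pair, 2 further pairs of members lay within 20 kb of each other. This makes 12 members (27.9%) in 4 clusters. At the same gap, 93.1% of the sequence-name genes kept lay in clusters. That set is far larger and so denser along the genome, and the shares cannot be compared directly. Whether the members lie closer together than equally many genes drawn from that set was not tested. The C36C5 pair lies 5.3 kb apart on chromosome V (C36C5.12, V 3158404 to 3159352, and C36C5.14, V 3164675 to 3165538) and encodes 202 and 201 residues. C36C5.12 had 16.22, 19.2, 19.2 and 16.3 FPKM in NL against 8.49, 6.51, 5.48 and 6.59 FPKM in DL, a ratio of 2.62. C36C5.14 had 2.29, 1.5, 2.77 and 2.57 FPKM in NL against 0.689, 0.147, 0.975 and 0.976 FPKM in DL, a ratio of 3.27. Nearby lie 3 more genes with 3 coding exons and nearly the same coding length. C36C5.4 (201 residues), the next gene after C36C5.14, was at most 0.171 FPKM in any library. exh-1 (204 residues) had 26.6 ± 1.86 FPKM in NL and 17.9 FPKM in DL on average, and C36C5.15 (203 residues) had 0.693, 0.988, 2.47 and 0.939 FPKM in NL against 0.908, 0.242, 0.178 and 0.989 FPKM in DL. The difference of C36C5.15 was thus not larger than the spread within the groups.

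The F17B5 pair on chromosome I is 11157 bases apart and its members did not share their pattern. F17B5.4 (I 13199350 to 13201037, 309 residues) had 2.0, 2.0, 4.79 and 1.61 FPKM in NL against 0.506, 0.392, 0.542 and 0.752 FPKM in DL, so NL 3 was its highest library, whereas F17B5.1 was low in NL 3. F17B5.8, between them, was not lower in DL, with 15.6 ± 4.53 FPKM in NL and 22.5 FPKM in DL on average. The gene before F17B5.1, rgba-1, 1.1 kb away on the other strand, had 4.79, 5.81, 3.76 and 1.14 FPKM in NL and 1.30, 0.769, 0 and 0.314 FPKM in DL.

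The nearest protein-coding genes of the members leaned the same way. Of the 77 nearest genes on either side that are no members, 44 reached a mean of 1 FPKM, and 35 of these (79.5%) had a lower mean in DL, with a median log2 difference of -0.34. Leaving out the run gave 33 of 42 (78.6%) and -0.33. Over all 13561 protein-coding genes kept, 45.7% were lower and the median was 0.04. These shares are a description, since neighbours can overlap members or share their reads.

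Chromosome V held 21 of the 43 members (48.8%), against 20.8% of the sequence-name genes kept, and 15 of the 37 members outside the run (40.5%). Put the other way, 1.78% of 1183 sequence-name genes on V met the rule and 0.487% of 4515 on the other chromosomes. Chromosomes I to IV held 4 members each and X held 6. A single annotated transcript was more frequent among the members, 35 of 43 (81.4%), than among the sequence-name genes kept (67.1%), while the median number of coding exons, 5, was the same.

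Overlapping genes limit some values. The library kit named in the labels does not mark strand, so reads from a member and from a gene across it on the other strand cannot be told apart. Leaving out piRNA genes, 11 members overlap another gene and 10 of these a protein-coding one, 8 on the opposite strand and 2 on the same strand. F01D4.8 also overlaps a piRNA gene, which is listed at 0 in every library. B0478.3 and jnk-1, a stress kinase gene, overlap only at their ends, from IV 6963716 to 6963719, so few reads can be shared. The FPKM of jnk-1 was 3.25 ± 0.39 in NL and 2.57 ± 0.554 in DL. K01A2.4 lies across mps-2, a potassium channel subunit gene, with 6.68 ± 1.80 and 6.54 ± 0.719 FPKM. R07B1.13, which overlaps R07B1.8 in part, had a higher mean in DL, 16.1 ± 5.71 FPKM against 12.4 ± 5.84 FPKM in NL (SD, n = 4 each). F46C5.1 lies across the noncoding RNA gene linc-72.

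The 16 members whose values were not given so far are K01D12.10, F01D4.8, B0478.3, C03G6.6, R06A10.1, T26G10.5, W04C9.6, Y45F10D.2, F23F1.2, R07B1.8, F16H6.7, R07A4.3, F08C6.5, EGAP9.3, R08A2.7 and F41C6.7. Their NL means ran from 1.79 FPKM for K01D12.10 to 20.3 FPKM for F23F1.2. Their ratios of means ran from 2.03 for F41C6.7 to 6.34 for K01D12.10. At the lower end the groups were tight: R08A2.7 had 7.75 ± 0.671 FPKM in NL and 3.77 ± 1.07 FPKM in DL, and EGAP9.3 had 5.66 ± 0.724 and 2.75 ± 0.256 FPKM (SD, n = 4 each).

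The NL libraries differed from each other in the members' levels. NL 3 was the highest NL library for 25 of 43 members (58.1%, against 40.8% of the sequence-name genes kept), and NL 4 the lowest for 29 (67.4% against 43.2%). Relative to the geometric mean of NL 1 and NL 2, NL 3 had a median of 1.28 over the members and NL 4 one of 0.725, while NL 2 over NL 1 had a median of 1.01. NL 3 was at least 2 times that geometric mean in 13 members (30.2%, against 20.4%), of which 10 lie on chromosome V. NL 4 was at most 0.5 times the geometric mean in 13 (30.2%, against 21.8%). NL 3 is the NL library with sperm and vitellogenin transcripts, and whether stage has a part in these members' levels was not tested. DL 2, which also held vitellogenin transcripts, was the highest DL library for 10 members (23.3%, against 33.9%) and the lowest for 13 (30.2%, against 28.9%). Most often the highest was DL 1, for 14 members (32.6%, against 22.8%), and most often the lowest DL 3, for 18 (41.9%, against 22.7%).

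**Figure D4:**
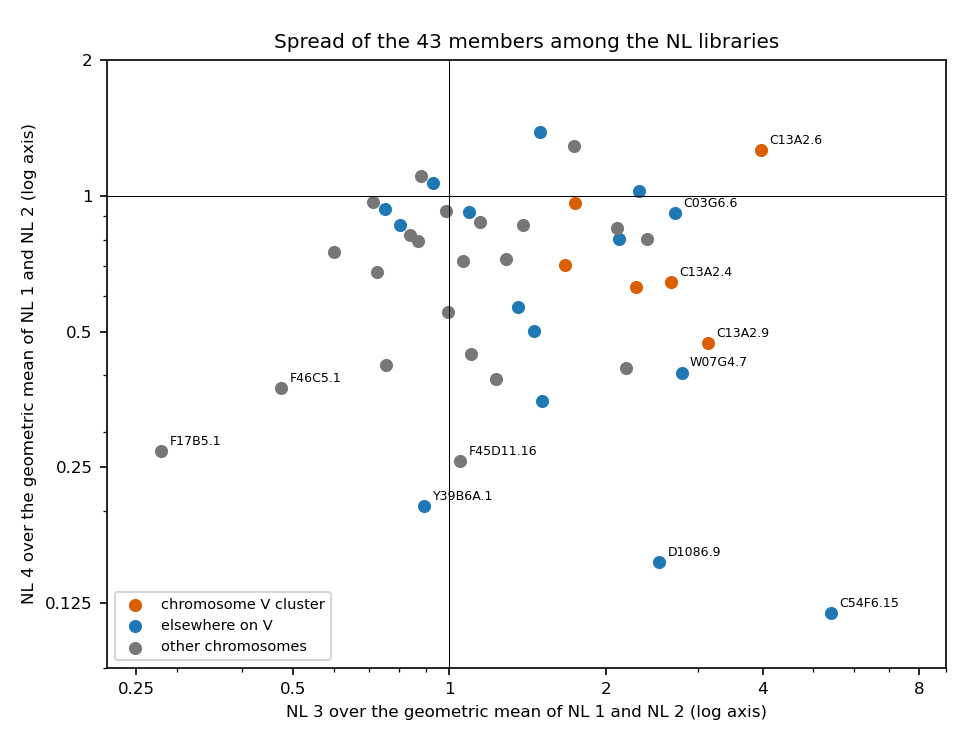
NL 3 (horizontal) and NL 4 (vertical) of each member, each divided by the geometric mean of NL 1 and NL 2 (log axes); colours mark the chromosome V cluster, other members on V and members on other chromosomes. The 6 members of the cluster lie to the right of 1, and C54F6.15 is at once the highest in NL 3 and the lowest in NL 4.

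Within the labelled batches the members' ratio of NL to DL differed in size. The median ratio was 3.58 in batch 1, 4.49 in batch 2, 6.84 in batch 3 and 2.87 in batch 4, where C54F6.15 has no ratio because DL 4 is 0. Over all sequence-name genes kept it was 0.944, 0.940, 1.04 and 0.871. Batch 3, which holds NL 3, gave the largest ratio for 22 members, and batch 4, which holds NL 4, the smallest for 19. By the choice of members no ratio within a batch can be under 1.5, and the lowest was 1.53, that of Y39B6A.1 in batch 4. A weaker rule that asks for a ratio of 1.5 within each batch only found 101 genes. All 43 members are among them, which the stricter rule makes certain.

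**Figure D5:**
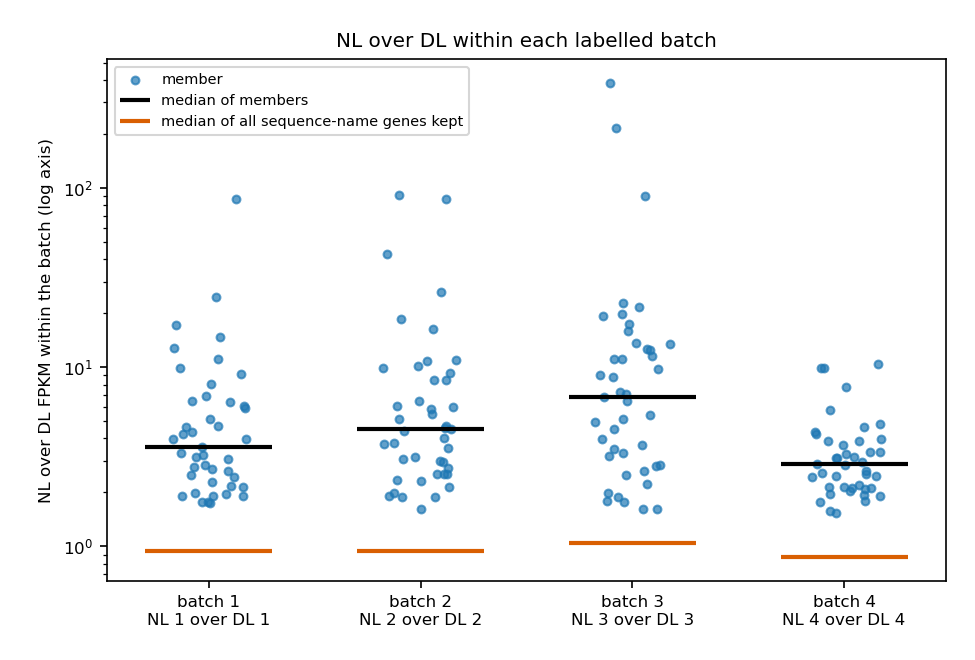
Ratio of NL to DL FPKM of each member within each of the 4 labelled batches (log axis); points are members, black bars their median and orange bars the median of all sequence-name genes kept. The members' medians are 3.58, 4.49, 6.84 and 2.87 in batches 1 to 4, and C54F6.15 is left out of batch 4, where DL 4 is 0.

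The margin of the rule fell within a continuum. Just inside lay C06E8.5 and T14A8.2 with a lowest NL library 1.51 times the highest DL library, ZK512.7 with 1.52 and Y39B6A.1 with 1.53. Just outside lay C23G10.11 with 1.496, C04F12.8 and F48G7.8 with 1.49 and T28C12.6 with 1.48. C23G10.11 and F48G7.8 had larger ratios of means, 6.01 and 4.08, than most genes near the margin inside it. A further 20 sequence-name genes passed the ratio but had a mean under 1 FPKM. F22B5.4, F44E5.4 and F44E5.5 were left out beforehand, and none of these 3 met the rule.

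A fit over all loci gave a count on another scale. Across 13561 protein-coding genes kept, 4.95% had no overlap between the groups in the lower direction, by FPKM alone. limma on log2(FPKM + 1) with Benjamini-Hochberg adjustment over 14358 loci called 101 in either direction (0.703%) and 59 lower in DL (0.411%), of which 16 are members. With the labelled batch as a block it called 12 lower (0.0836%), of which 4 are members. Since the members were chosen on this contrast, nothing is read from these counts. The count of members called ran from 1 without NL 1 to 35 without NL 3.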

How the data were processed

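The authors deposited FPKM values, 1 column per library, for 8 libraries. HISAT2, HTSeq and WBcel235 are the aligner, counter and build, per the submitters' processing notes. The sources used here give neither their versions nor the annotation, the strand setting or the treatment of reads matching several genes. The FPKM values were used as deposited. Symbols, positions and coding structure came from the WBcel235 annotation (Ensembl release 115) and newer names from RefSeq, in which all 43 members matched. With exon lengths, 22881 of 22985 genes (99.5%) gave whole reads in all libraries within 0.05 read. These reads served for depth, counting intervals and 1 alternative scaling.

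The members and gene lists were chosen with earlier results of these data known. Genes described are the 3 markers, the 10 highest NL means, the 10 highest ratios of means, clustered members and their neighbours, up to 3 members of a family and the 4 genes on either side of the margin. The F42A10, C54F6 and H39E23 neighbours, the run and the gtnt family were added after values were seen. Tests were made with limma 3.58.1 in R 4.3.3 on log2(FPKM + 1), which understates changes of low genes, for loci with a mean of at least 1 FPKM, at an adjusted p of 0.05; the fit was tested on simulated data. Tables were made with Python 3.11.15, pandas 2.3.3 and numpy 2.4.6, and plots with matplotlib 3.10.9. Pairing comes from the batch labels. Correlations of deviations within batches 1 to 4 were -0.01, -0.19, -0.32 and 0.19. Between libraries of different batches they ran from -0.37 for NL 3 with DL 4 to 0.59 for NL 3 with DL 2, the highest of all. Every pair of libraries in a group differed beyond sampling noise. The chi-square per gene was 8.06 for NL 1 against NL 2 and 23.7 to 115.8 for the other pairs. NL 1 and NL 2 were thus much closer to each other than any other pair. Depth makes values of 3 reads or fewer imprecise, which touches 6 members in DL. Protein relatives and hydrophobic ends were planned and not run here.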

Additional observations from a re-analysis of the deposited data

Results flagged for a closer look

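In 8 of 86 combinations of a member and a group, 1 library lay farther from the other 3 than Dixon's critical value allows. That value is set to be passed about 1 in 20 times by independent values with a normal spread. The members share their libraries, were chosen on their lowest NL and highest DL values, and were taken as FPKM. The count can therefore not be set against that rate, and nothing is read from it. The 5 high values in NL 3 were 4.79 FPKM for F17B5.4 (others 1.61 to 2.0), 4.95 FPKM for C03G6.6 (others 1.58 to 2.09), 6.57 FPKM for K08D9.6 (others 2.76 to 2.92), 2.85 FPKM for C13A2.1 (others 1.58 to 1.69) and 259 FPKM for ZK512.7 (others 105 to 126). Y39B6A.1 was low in NL 4, at 71.2 FPKM against 311 to 353 in the other NL libraries. F08C6.5 was high in NL 1, at 4.05 FPKM against 2.45 to 2.65. F42A10.7 was high in DL 2, at 12.6 FPKM against 5.61 to 6.76 in the other DL libraries.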

How the results depend on the processing

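Of 602 log2 differences of members over 14 alternatives, 560 moved by less than the spread between libraries, 42 moved further and 0 changed sign, which the choice of members fixes for most of these alternatives. The number of genes that met the rule was 43 in the main setting, 94 at the lower ratio tried, 18 at a ratio of 2, 17 at a mean of 5 FPKM, 20 for the ratio of FPKM + 1, 101 within each batch and 83 without NL 3 and DL 2 together. Leaving out 1 library gave 45 to 101 genes (68 without NL 3, 101 without NL 4, 79 without DL 1). Scaling to the same sum of FPKM kept 29 of the 43 among 36 genes, the same median 42 among 51 and recovered reads 33 among 40. Members in clusters were 12, and 4 at a gap of 5 kb. limma called 16 members, and 6 with no filter, 9 at the same sum, 34 after quantile normalization, 30 without NL 3 and DL 2, and 1 to 35 with 1 library left out. With the batch as a replicate block it called 4 members and 25 loci. Over all loci limma called 101, and 33 with no filter, 216 after quantile normalization, 1325 without NL 3 and DL 2, and 10 to 1558 with 1 library left out. The split of higher and lower calls was 42 and 59, 40 and 31 at the same sum, 67 and 149 after quantile normalization, 1176 and 382 without NL 3, and 1071 and 254 without NL 3 and DL 2. The cause of these shifts was not tested. Sequence names kept in RefSeq too (35 members) and members without overlapping genes other than piRNA genes (32) were alternatives chosen after seeing the data. Protein relatives and hydrophobic ends were not run.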
